A study of Mus musculus with 115 samples.

Results

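Dcx, Sox4, Sox11, Igfbpl1, Dlx1, Dlx2, Cd24a, Draxin and Fabp7 are genes used as marks of newborn neurons and of the progenitors that make them. These 9 genes were taken by symbol from the 37315 genes of the count table of a mouse ageing study, and all 9 were found, Draxin under its older symbol 2610109H07Rik and by its identifier. Levels are given as CPM, the reads of a gene per 1000000 reads of the library, with library sizes scaled for composition. Brain is the tissue in which the genes are described, and liver, skin and blood serve as contrast. After a filter on low counts all 9 genes could be tested in brain, 6 in skin, 4 in liver and 4 in blood.

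In the adult mouse brain new neurons arise mainly along the lateral ventricle and in the dentate gyrus of the hippocampus. Neural stem cells give rise to dividing progenitors, which turn into neuroblasts, and neuroblasts born at the ventricle migrate to the olfactory bulb and become inhibitory interneurons. The transcription factors of the SoxC group and of the Dlx family act within this lineage, Dcx and Cd24a belong to the migrating neuroblast, and Fabp7 belongs to stem cells and to astrocytes. Neurogenesis is known to decline early in adult life. Most of these genes are also used by other cells, among them mature interneurons, oligodendrocyte precursors, blood cells and hair follicles.

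RNA was sequenced from male C57BL/6J mice aged 2, 9, 15, 24 and 30 months, for which the labels name no treatment and no engineered allele. Brain was 1 complete hemisphere, so that stem cell niches were not separated from the rest. In order of age there were 8, 8, 8, 7 and 8 brain libraries and 4, 5, 5, 5 and 5 liver libraries, 5 at each age for skin of the hairless abdomen, and 5, 5, 5, 4 and 5 for globin-depleted whole blood. The labels do not say that libraries of an age come from separate animals, and p-values measure the spread between them. Young stands for 2 months and old for the mean of 24 and 30 months. In such bulk samples fewer cells of a type and less RNA per cell cannot be told apart. Reads in genes ranged from 28141342 to 50375815 per brain library. Each tissue carried its defining markers: the summed level of 6 markers of mature neurons was 3047 to 6877 CPM in brain and at most 34.2 CPM elsewhere, 5 hepatocyte markers summed to at least 80690 CPM in liver, 6 markers of epidermis and hair follicle to at least 8733 CPM in skin, and 5 red cell markers to at least 56700 CPM in blood.

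In brain, 5 libraries labelled 9 months each had a nearly equal counterpart labelled 15 months. Over 15136 genes the mean chi-square per gene within these 5 pairs was 1.23 to 2.96, whereas 133 pairs of libraries of one age gave at least 4.71 and a median of 46.4. These 10 libraries (replicates 4 to 8 at both ages) were kept under their labels, and the account of the course over age also gives means and counts from the 3 separate libraries of each of these ages. In the comparison of old with young they enter only the scaling and the estimate of the spread.

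The upstream sequences of some of the genes are shown because several of the genes were lower in old brain. RefSeq promoter windows (GRCm38.p6) were matched for 7 of the 9 genes, all but Cd24a and Igfbpl1. The 200 bases from position 250 to position 51 before the annotated start were searched on both strands for 5 motifs. The letters searched were CCAAT for the box of that name and CACGTG for the E-box. For the binding cores of SOX and of homeodomain proteins they were ACAAT and TAATT, and the TATA box was searched as TATAAA. No motif contains another. Capitals mark every match in the windows of the genes that fell most in old brain, of Sox11 as the close relative of Sox4, and of Dlx2 as a gene that was not called there.
Sox4, chr13:28953750-28953949 (- strand): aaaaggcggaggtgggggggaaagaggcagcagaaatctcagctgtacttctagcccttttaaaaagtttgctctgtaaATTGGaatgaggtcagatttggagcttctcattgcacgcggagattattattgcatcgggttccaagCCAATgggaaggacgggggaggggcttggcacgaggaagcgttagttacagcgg
Sox11, chr12:27342769-27342968 (- strand): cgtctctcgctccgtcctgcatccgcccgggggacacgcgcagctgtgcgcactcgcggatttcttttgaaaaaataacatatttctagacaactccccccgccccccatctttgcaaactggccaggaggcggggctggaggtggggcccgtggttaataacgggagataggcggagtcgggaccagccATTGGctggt
Draxin, chr4:148130749-148130948 (- strand): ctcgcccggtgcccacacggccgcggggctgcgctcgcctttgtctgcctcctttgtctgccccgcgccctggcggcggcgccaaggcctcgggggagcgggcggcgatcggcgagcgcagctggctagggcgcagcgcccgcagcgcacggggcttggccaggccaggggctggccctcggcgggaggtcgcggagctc
Fabp7, chr10:57784673-57784872 (+ strand): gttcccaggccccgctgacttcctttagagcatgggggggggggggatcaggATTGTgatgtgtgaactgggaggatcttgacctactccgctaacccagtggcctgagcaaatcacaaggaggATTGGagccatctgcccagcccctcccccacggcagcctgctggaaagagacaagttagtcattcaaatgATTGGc
Dlx2, chr2:71546805-71547004 (- strand): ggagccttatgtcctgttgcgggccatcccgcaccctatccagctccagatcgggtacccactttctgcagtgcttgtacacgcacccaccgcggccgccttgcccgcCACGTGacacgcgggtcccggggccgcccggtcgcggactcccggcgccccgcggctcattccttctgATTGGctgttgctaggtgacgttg
A CCAAT box stood in 5 of the 8 windows of the 7 genes (Dcx has 2 windows), against 28.4% of all 32851 promoter windows. Sox4 held 2 of them (171 and 104 bases before the start), as did Fabp7 (126 and 56 bases), while Sox11 (60 bases), Dlx2 (74 bases) and Dcx (196 bases before one of its 2 annotated starts) held 1. The E-box was found in Dlx2 alone, where 4.34% of all windows have it, and the SOX core in Fabp7 alone, where 23.7% do. Dcx was the one gene with a homeodomain core (22.2% of all windows) and a TATA box (9.14%). The windows of Draxin and Dlx1 held none of the 5 motifs. Bases nearer the start than position 51 were not searched, so motifs there, a TATA box among them, would be missed. These matches are descriptions of letters, not sites of binding.

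In old brain 7 of the 9 genes were lower than in young brain, whereas 3.37% of all 18851 genes tested in brain were called lower (edgeR quasi-likelihood test, Benjamini-Hochberg adjusted p under 0.05). The 9 genes were chosen with earlier results of these data known. Their counts beside the shares of all genes, here and below, are thus descriptions and not an independent test. Igfbpl1 fell by 64.9%, Fabp7 fell by 55.4%, Sox4 fell by 43.4% and Draxin fell by 43.1%. Cd24a fell by 26.9%, Dcx fell by 24.1% and Sox11 fell by 23.4%, while Dlx1 and Dlx2 were not called. The log2 fold change was negative for all 9, with a median of -0.0016 over all genes tested. When only the 24-month libraries stood for old age the count was 6, with 214 of all 18851 genes called lower. With only those of 30 months it was 8, with 752 of all 18851 genes called lower. It stayed at 7 without the 10 near-identical libraries and without any single library of 2, 24 or 30 months. All 15 old libraries lay below all 8 young libraries for Sox4, Igfbpl1 and Fabp7, which 0.308% of all genes tested showed.

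**Figure D1:**
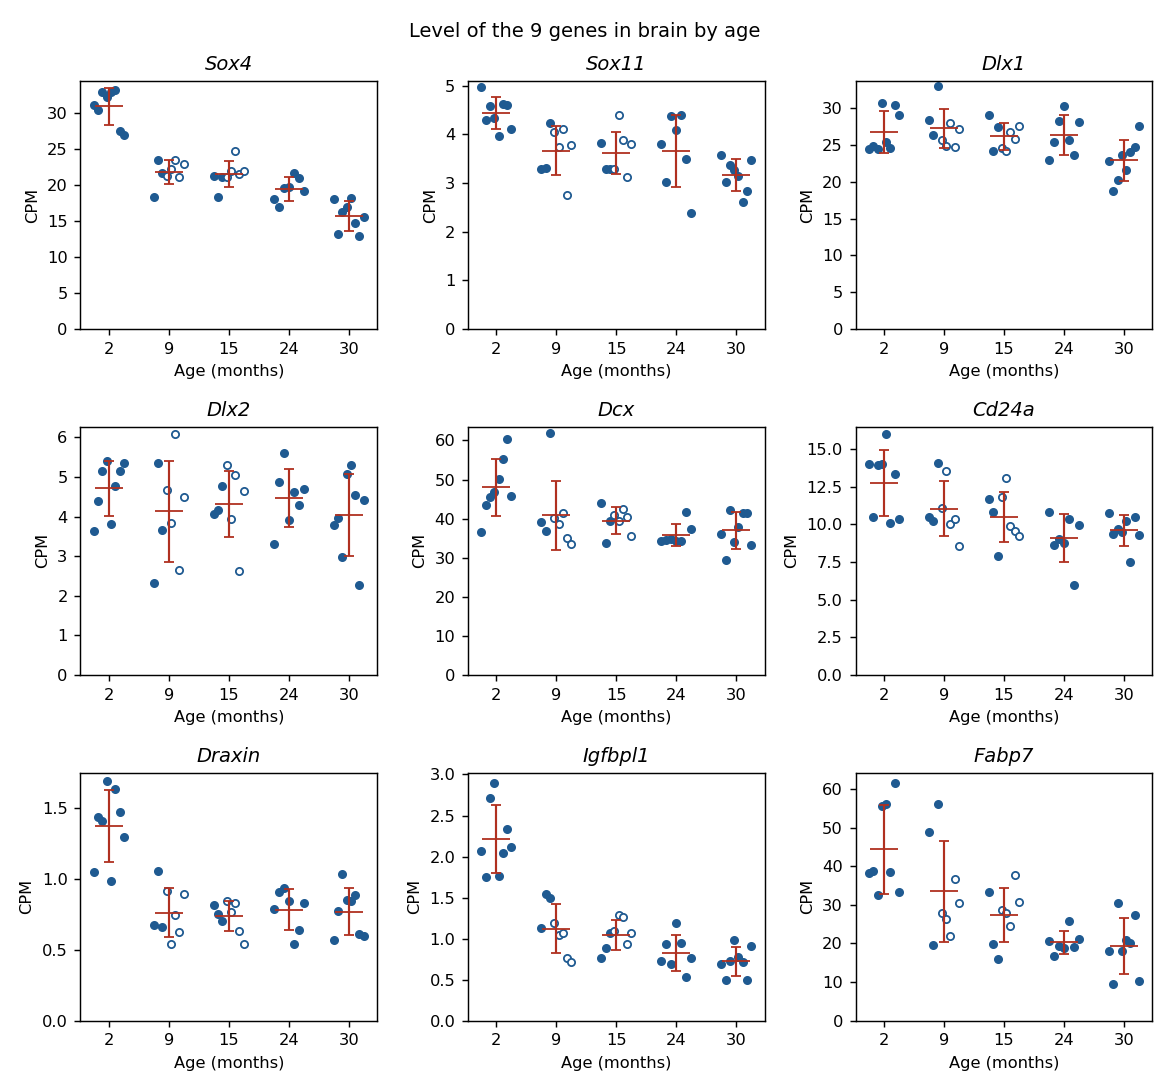
Level of the 9 genes in every brain library (CPM, y axes from 0) by age in months, with the mean and SD in red. Open circles are the 10 near-identical libraries of 9 and 15 months. The old libraries of Sox4, Igfbpl1 and Fabp7 do not overlap the young ones, and those of Dlx1 and Dlx2 do.

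Sox4 and Sox11 encode the SoxC transcription factors that drive the neuronal programme in committed progenitors. Sox4 (chromosome 13, 28948919 to 28953713, minus strand, GRCm38) had a lowest, median and highest level of 26.9, 31.8 and 33.3 CPM over 8 libraries at 2 months. At 9 months these values were 18.4, 21.9 and 23.6 CPM, and at 15 months 18.3, 21.4 and 24.8 CPM. At 24 months (7 libraries) they were 16.9, 19.6 and 21.7 CPM, and at 30 months 12.9, 15.9 and 18.2 CPM. No library of a later age reached the lowest 2-month library. The log2 fold change of old against young was -0.82 ± 0.06 (SE; adjusted p = 4.9e-13), and Sox4 had the sixth smallest p of all genes tested in brain. An annotated non-coding gene, Gm26735, shares 2753 bases with Sox4 on the other strand and has no count of its own here.

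Sox11 (chromosome 12, 27334264 to 27342574, minus strand) changed less. It had a lowest, median and highest level of 3.96, 4.46 and 4.96 CPM at 2 months, 2.38, 3.79 and 4.39 CPM at 24 months and 2.61, 3.20 and 3.58 CPM at 30 months. All 8 libraries of 30 months lay below the young ones, whereas 3 of the 7 libraries of 24 months were within the young range. The log2 fold change was -0.38 ± 0.09 (adjusted p = 0.0023). For 24 months alone it was -0.28 and not called (adjusted p = 0.16), and for 30 months alone it was -0.49 (adjusted p = 0.00067). Sox12, the remaining SoxC gene, had 20.1 ± 2.19 CPM (SD, n = 8) at 2 months and a log2 fold change of -0.15 ± 0.07 that was not called (adjusted p = 0.25).

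Dlx1 and Dlx2 are neighbouring homeobox genes of chromosome 2 that specify inhibitory neurons and stay active in mature interneurons. Dlx1 (71528113 to 71533981, plus strand) had 24.4, 25.1 and 30.7 CPM as lowest, median and highest level at 2 months, 23.0, 25.7 and 30.3 CPM at 24 months and 18.8, 23.2 and 27.5 CPM at 30 months. The groups overlapped, and the log2 fold change of -0.12 ± 0.06 was not called (adjusted p = 0.29). Against 30 months alone Dlx1 was called lower at -0.22 ± 0.07 (adjusted p = 0.038), with 6 of 8 libraries below the young range. Dlx1as, an antisense gene that covers all 5869 bases of Dlx1, had 3.09 ± 0.305 CPM at 2 months and a log2 fold change of -0.03. Use of strand in the counting was not stated, so reads of Dlx1 and Dlx1as cannot be told apart.

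Dlx2 (71543408 to 71546754, minus strand) had 3.63, 4.96 and 5.39 CPM at 2 months, 3.32, 4.62 and 5.60 CPM at 24 months and 2.26, 4.196 and 5.31 CPM at 30 months. The groups overlapped widely and the log2 fold change was -0.15 ± 0.14 (adjusted p = 0.69). Dlx5 and Dlx6, the other Dlx genes of the interneuron lineage, stood at -0.01 ± 0.11 and 0.02 ± 0.07, and the non-coding Dlx6os1 at -0.24 ± 0.13, none of them called. The SD of Dlx2 within an age was 14.6% to 31.0% of the mean, and the size of fall that could be detected against it was not computed.

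Dcx (chromosome X, 143855842 to 143933311, minus strand) encodes doublecortin, the microtubule protein of migrating neuroblasts. Its lowest, median and highest levels were 36.6, 46.3 and 60.3 CPM at 2 months, 34.2, 34.4 and 41.6 CPM at 24 months and 29.4, 37.0 and 42.3 CPM at 30 months. Of the 15 old libraries 9 lay below the young range and the other 6 within it. The log2 fold change was -0.40 ± 0.08 (adjusted p = 0.0012). Its relatives Dclk1 and Dclk2, doublecortin-like kinases of mature neurons, stood at -0.13 ± 0.09 and -0.05 ± 0.06 and were not called (adjusted p = 0.52 and 0.75). One 9-month library, replicate 3, had 61.9 CPM of Dcx, above every other brain library.

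Cd24a (chromosome 10, 43578284 to 43584265, plus strand) encodes a sialoglycoprotein of the surface of neuroblasts and ependymal cells. It had 10.1, 13.7 and 15.97 CPM as lowest, median and highest level at 2 months, 5.96, 9.01 and 10.8 CPM at 24 months and 7.51, 9.56 and 10.8 CPM at 30 months. Of the 15 old libraries 10 were below the young range and none above it, and the log2 fold change was -0.45 ± 0.10 (adjusted p = 0.0017). Of 8 markers of choroid plexus and ependyma 0 were called by edgeR (1 at an unadjusted p under 0.05), with a median log2 fold change of -0.05. Of 5 red cell markers 0 were called in old brain (0 unadjusted), with a median of -0.41 and all 5 negative. Their summed level had a median of 372 CPM when young and 272 CPM when old, and ranged from 37.5 to 1659 CPM over all brain libraries. Mean Cd24a was 4960 CPM in blood and 10.6 CPM in brain. The part of blood in the difference of Cd24a was not tested.

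Draxin (chromosome 4, 148098437 to 148130698, minus strand) encodes a secreted repulsive axon guidance protein that binds the netrin receptor Dcc. It was a gene of low counts, with 17 to 70 reads per brain library. Its lowest, median and highest levels were 0.990, 1.43 and 1.69 CPM at 2 months, 0.543, 0.831 and 0.938 CPM at 24 months and 0.568, 0.812 and 1.03 CPM at 30 months. In all but 1 of the 15 old libraries it was below the young range, and the log2 fold change was -0.81 ± 0.12 (adjusted p = 6.4e-06). Its receptors Dcc and Neo1 stood at -0.17 ± 0.22 and 0.03 ± 0.16, neither called. Mad2l2, which overlaps Draxin by 315 bases on the other strand, stood at -0.08 ± 0.05 in brain.

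Igfbpl1 (chromosome 4, 45809468 to 45826923, minus strand) encodes a secreted protein related to the binding proteins of insulin-like growth factors. It had 17 to 113 reads per brain library. Its lowest, median and highest levels were 1.76, 2.09 and 2.90 CPM at 2 months, 0.720, 1.10 and 1.55 CPM at 9 months and 0.766, 1.07 and 1.29 CPM at 15 months. At 24 months they were 0.532, 0.765 and 1.19 CPM, and at 30 months 0.493, 0.723 and 0.984 CPM. Every library of 9 months and later lay below every 2-month library. The log2 fold change of old against young was -1.51 ± 0.13 (adjusted p = 1.7e-10), the sixth largest fall among the genes tested.

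Fabp7 (chromosome 10, 57784881 to 57788450, plus strand) encodes the fatty acid binding protein of radial glia, neural stem cells and astrocytes. Its lowest, median and highest levels were 32.6, 38.7 and 61.6 CPM at 2 months, 19.5, 29.2 and 56.0 CPM at 9 months and 16.1, 28.3 and 37.7 CPM at 15 months. At 24 months they were 16.7, 19.4 and 25.9 CPM, and at 30 months 9.56, 19.0 and 30.5 CPM. All old libraries lay below the young range, and the log2 fold change was -1.16 ± 0.18 (adjusted p = 1.8e-05). Fabp5, a relative expressed in many cells, stood at -0.17 ± 0.11 and was not called. Fabp7 had the widest spread among libraries of one age, with an SD of up to 38.8% of the mean at 9 months.

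The genes followed different courses over the 5 ages. From 2 to 9 months 3 of the 9 genes were called, all lower, against 0.340% of all genes tested. Sox4 fell by 0.50 ± 0.07 on the log2 scale (adjusted p = 2.0e-05), Igfbpl1 fell by 0.98 ± 0.15 (adjusted p = 0.00025) and Draxin fell by 0.84 ± 0.14 (adjusted p = 0.00057). Without the near-identical libraries, which leaves 3 libraries at 9 months, Sox4 was still called (-0.55 ± 0.10, adjusted p = 0.021), while Igfbpl1 (-0.68 ± 0.20, adjusted p = 0.22) and Draxin (-0.79 ± 0.20, adjusted p = 0.14) were not. In those 3 libraries Sox4 ranged from 18.4 to 23.4 CPM and Igfbpl1 from 1.13 to 1.55 CPM, below every 2-month library, and Draxin ranged from 0.665 to 1.06 CPM, with 2 of 3 below. Mean Draxin was 55.6%, 53.8%, 57.1% and 56.1% of its 2-month level at the 4 later ages, or 58.2% at 9 and 55.3% at 15 months in the separate libraries. Mean Igfbpl1 was 50.6% of its 2-month level at 9 months and 47.2% at 15 months, against 62.7% and 40.9% in the separate libraries. For Sox4 the means were 70.6% and 69.6%, against 68.4% and 65.4%.

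From 9 to 15 months 0 of the 9 genes were called by edgeR, DESeq2 or limma voom, with 0 at an unadjusted p under 0.05 and 0% of all genes called. As 5 of the 8 libraries at each of these ages nearly coincide in pairs, a difference between the ages could hardly show in this test. With the 3 separate libraries an age edgeR called 0 of the 9, with 2 at an unadjusted p under 0.05, Igfbpl1 (-0.60 ± 0.25) and Fabp7 (-0.84 ± 0.36), both with an adjusted p of 0.38. From 15 to 24 months 0 of the 9 were called by any of these tools, with 1 at an unadjusted p under 0.05, against 0.0424% of all genes. With the 3 separate libraries of 15 months edgeR called 0, with 0 at an unadjusted p under 0.05. From 24 to 30 months 1 of the 9 was called, Sox4 at -0.31 ± 0.07 (adjusted p = 0.045), against 0.249% of all genes. This call was lost in 13 of the alternative fits, among them limma voom (adjusted p = 0.063), the fits without the near-identical libraries (adjusted p = 0.13) and with the added library of 24 months (adjusted p = 0.24), and the fits without replicates 1, 3, 4, 5, 6 or 7 at 24 months or 2, 7 or 8 at 30 months, with a log2 fold change of -0.34 to -0.27 when single libraries were left out. Fabp7 went from 75.5% of its 2-month mean at 9 months to 61.7% at 15, 45.7% at 24 and 43.6% at 30 months, with no step between neighbouring ages called. Its 3 separate libraries ranged from 19.5 to 56.0 CPM at 9 months and from 16.1 to 33.3 CPM at 15 months, with means at 93.6% and 52.1% of the 2-month mean, and without the near-identical libraries its difference from 2 to 9 months was -0.10 ± 0.30.

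**Figure D2:**
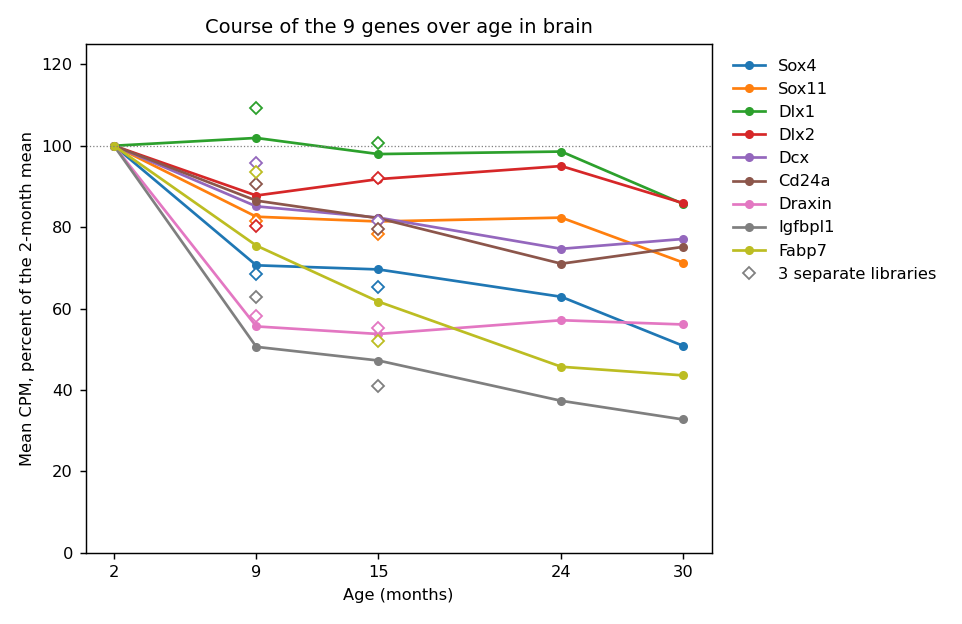
Mean CPM of each gene in brain as a percentage of its mean at 2 months (y axis) against age in months, with 7 to 8 libraries an age. Open diamonds are the means of the 3 separate libraries at 9 and at 15 months. Igfbpl1 and Draxin stand at 50.6% and 55.6% at 9 months (diamonds 62.7% and 58.2%), Fabp7 at 75.5% (diamond 93.6%), and Dlx1 stays at 98.0% to 101.9% up to 24 months (diamonds 109% and 101%).

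Levels of different genes can be compared only per length of transcript, as RPKM, which is CPM divided by the length of the exons in kilobases. At 2 months Fabp7 had the highest level, with 35.5 RPKM (26.1 to 49.3 over 8 libraries). Sox4 followed with 6.45 RPKM, then Dlx1 with 4.95, Cd24a with 4.95 and Dcx with 3.79 RPKM. Sox4 and Dlx1, Dlx1 and Cd24a, and Cd24a and Dcx overlapped in their ranges. Dlx2 had 1.65 RPKM, Igfbpl1 0.681, Sox11 0.534 and Draxin 0.264 RPKM. Within this lower part only Igfbpl1 and Sox11 overlapped.

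Other genes of the lineage were followed in brain in 6 lists. Of 20 other genes of neuroblasts and immature neurons 4 were called lower and 0 higher in old brain, with a median log2 fold change of -0.13. Marcksl1, a regulator of actin, fell from 66.7 ± 7.05 to 38.97 ± 5.81 CPM (SD, n = 8 and 15; log2 -0.77 ± 0.08), and Nrep, a neuronal regeneration related protein, from 103 ± 27.7 to 57.0 ± 10.4 CPM (-0.86 ± 0.12). Of 8 tested genes of intermediate progenitors 2 were lower, the neurogenic factor Neurog2 (-0.85 ± 0.19) and Mycn (-0.45 ± 0.13), with a median of -0.18. Of 15 genes of neural stem cells and radial glia 2 were lower and 1 higher (median -0.10). The matrix protein Tnc was lower (-0.86 ± 0.22), and the intermediate filament Vim, which reactive astrocytes also make, was higher (0.51 ± 0.13).

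Genes of cell division showed the largest share, with 14 of 27 lower and 0 higher and a median log2 fold change of -0.43. The topoisomerase Top2a fell from 2.87 ± 0.274 to 0.881 ± 0.167 CPM (-1.70 ± 0.11) and the proliferation antigen Mki67 from 3.01 ± 0.449 to 1.31 ± 0.226 CPM (-1.20 ± 0.10). None of the 12 transcription factors and regulators of the interneuron lineage were called by edgeR (2 at an unadjusted p under 0.05, median -0.02), and none of the 25 tested family members and partners of the 9 genes (1 at an unadjusted p under 0.05, median -0.05).

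Dividing cells of the adult brain include oligodendrocyte precursors, which also use Sox4 and Fabp7. Of 8 markers of this lineage 3 were lower and 0 higher in old brain, and their summed level was 280 to 396 CPM at 2 months and 152 to 329 CPM at the old ages. Gpr17, a receptor of committed precursors, fell from 54.7 ± 8.56 to 23.3 ± 6.81 CPM (-1.23 ± 0.15), while none of the 8 markers was at 0. Their part in the differences of the 9 genes was not tested. Of 7 astrocyte markers Gfap was higher (0.68 ± 0.12) and none lower. Of 5 markers of dermis, genes of collagen and matrix that fibroblasts of other tissues also make, 2 were lower in old brain, Col3a1 (-1.42 ± 0.28) and Col1a1 (-0.81 ± 0.20), with a median of -0.46 and 4 of 5 negative. Their summed level was 36.0 to 114 CPM when young and 30.8 to 71.95 CPM when old, none was at 0, and their part in the differences of the 9 genes was not tested. None of 6 mature neuron markers was called by edgeR (0 at an unadjusted p under 0.05), and their summed level was 3655 to 6226 CPM when young and 3047 to 6877 CPM when old. Of the markers of brain regions, edgeR called 0 of 6 of olfactory bulb (1 at an unadjusted p under 0.05, median log2 fold change -0.21), 0 of 7 of cerebellum (0 unadjusted, median -0.17), 0 of 6 of dentate gyrus (1 unadjusted, median 0.09) and 1 of 7 of striatum (Adora2a, -0.29 ± 0.07). Pituitary markers were higher in 4 of 7, their summed level having a median of 6.34 CPM when young and 6.10 CPM when old, with up to 29.1 CPM and 2774 CPM. The part of these regions in the differences of the 9 genes was not tested.

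**Figure D3:**
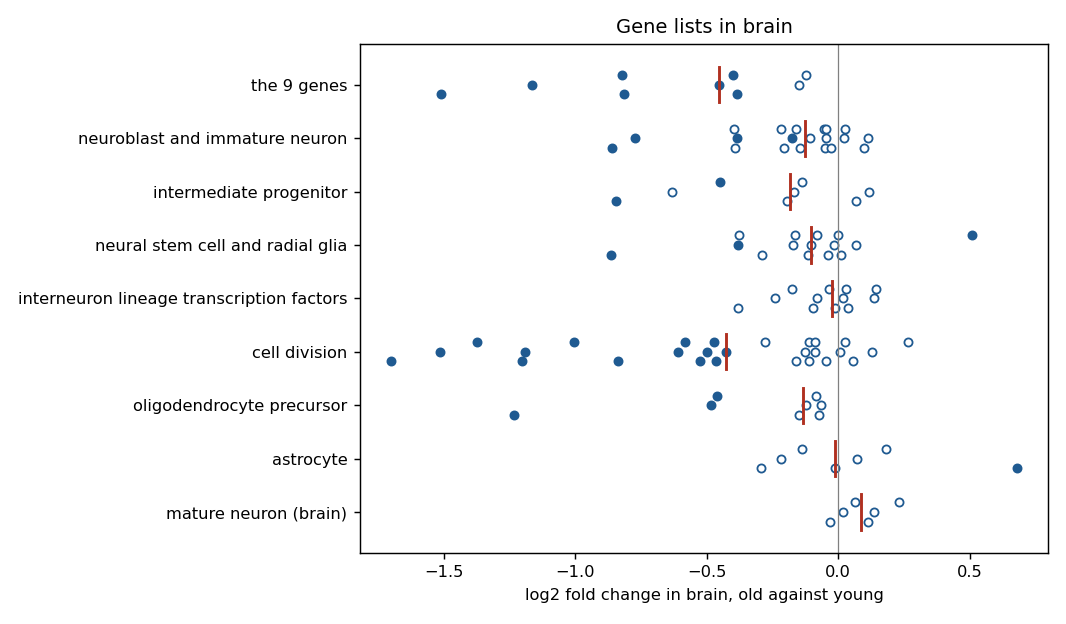
Log2 fold change of old against young brain (x axis) for the 9 genes and for the tested genes of 8 lists, 1 point a gene. Filled points were called at an adjusted p under 0.05 and red bars are medians. Points of cell division reach -1.70, and no gene of the interneuron list is filled.

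Over the 39 brain libraries the pairwise correlations of the 9 genes (log2 CPM) had a median r of 0.43 over 36 pairs, highest between Sox4 and Igfbpl1 (r = 0.85) and between Dcx and Fabp7 (r = 0.73). After age means were subtracted the median r was 0.11, and only Dcx and Fabp7 stayed over 0.5 (r = 0.56, and 0.66 without the near-identical libraries). The libraries of an age share that age and the values are descriptions. The genes whose levels were most like the mean of the 9 genes over all libraries were Adamtsl2 (r = 0.85), Gnb4 (0.84), Marcksl1 (0.81), Igsf9 (0.81), Mina (0.80), Kif19a (0.79), Fcrls (0.78) and Fbxl2 (0.77), against a median r of -0.01 over 12503 genes. All of these 8 were themselves lower in old brain. Their choice favours this, because most of the 9 genes they were matched to were lower there too. Within ages the 8 highest values were lower, from r = 0.64 for Hfm1 and r = 0.63 for Mttp through Fam198b, Zmat1, Aifm2, Chid1 and Zkscan2 to r = 0.58 for Slco5a1. They are the highest of 12503 genes, whose median r within ages was -0.04. Without the 2 libraries in which the mean of the 9 genes lay farthest from its median, they were 0.40 (Zmat1) to 0.56 (Mttp).

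Outside brain the 9 genes fell into those with almost no reads and those used by other cells. Sox11 had 0 reads in all 24 liver libraries, 1 read over all blood libraries and at most 6 reads in a skin library. Igfbpl1 had 0 reads in all 24 blood libraries and at most 4 reads in any liver or skin library. Dcx had at most 15 reads in a liver library, 3 in a skin library and 1 in a blood library. Dlx1 and Dlx2 had at most 4 reads in a liver library and at most 1 in a blood library. A library with 0 reads allows up to 3 counts, or 0.0644 to 0.149 CPM at the depths of these tissues, a limit that covers counting error only.

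In skin 3 of the 6 tested genes were called, all lower, against 43.9% of all genes tested there in either direction, and 3 of 6 is near that background. Dlx1 at 2 months had 0.342, 19.4, 21.4, 26.4 and 16.3 CPM in replicates 1 to 5. At 24 months it had 0.323, 16.3, 0.294, 0.281 and 0.306 CPM, and at 30 months 0.510, 0.632, 6.37, 0.376 and 0.108 CPM. Thus 4 of 5 young libraries and 2 of 10 old libraries were high, and the groups overlapped. Dlx2 followed the same libraries, with 0.761, 23.1, 26.8, 31.8 and 17.2 CPM at 2 months, 0.909, 19.1, 0.653, 0.619 and 0.336 CPM at 24 months and 0.655, 0.783, 5.27, 0.527 and 0.289 CPM at 30 months.

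Sox4 in skin had 36.1, 106, 115, 116 and 103 CPM at 2 months, 35.4, 82.5, 32.0, 27.8 and 22.7 CPM at 24 months and 21.7, 29.1, 41.9, 23.6 and 25.9 CPM at 30 months. The libraries low and high for the Dlx genes were also the lower and higher ones for Sox4. Replicate 3 of 30 months, at 41.9 CPM, was only a little above the 36.1 CPM of replicate 1 of 2 months. Lhx2, a transcription factor of hair follicle stem cells, had 8.64 CPM in replicate 1 and 74.5 to 86.8 CPM in the other 2-month libraries, 84.6 CPM in replicate 2 of 24 months and 33.8 CPM in replicate 3 of 30 months, with at most 19.0 CPM in the other old libraries. Krt25, a keratin of the growing hair root sheath, had 68.1 CPM in replicate 1 and at least 2753 CPM in the other 2-month libraries, 2561 and 819 CPM in the same 2 old libraries and at most 77.2 CPM in the rest. Of the whole list of 6 markers of epidermis and hair follicle 2 were lower (Lhx2 and Krt25) and 2 higher (Krt10 and Krt15) in old skin, with a summed level of 12588 to 14829 CPM when young and 11010 to 23237 CPM when old, and none was at 0. The part of the follicles in the differences was not tested.

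The log2 fold changes in skin were -1.50 ± 0.32 for Sox4 (adjusted p = 0.0018), -2.82 ± 1.11 for Dlx1 (adjusted p = 0.044) and -2.96 ± 0.99 for Dlx2 (adjusted p = 0.021). The call of Dlx1 held in 3 of 15 fits that left out one library, those without replicate 1 of 2 months, replicate 2 of 24 months or replicate 3 of 30 months. Without replicate 2 of 24 months the log2 fold change of Dlx1 was -4.58. Dlx2 lost its call without replicate 4 of 2 months (adjusted p = 0.054), and Sox4 kept its call in all 15. With 24 months alone as old Dlx1 was at -2.26 (adjusted p = 0.22) and Dlx2 at -2.21 (adjusted p = 0.18), neither called. With 30 months alone Dlx1 was at -3.37 and not called (adjusted p = 0.064), whereas Dlx2 was called at -3.71 (adjusted p = 0.030). Sox4 was called with either age alone, at -1.25 (adjusted p = 0.027) and -1.74 (adjusted p = 0.0034). Cd24a, which keratinocytes make, had 113 to 192 CPM in young and 74.5 to 216 CPM in old skin and was not called (-0.33 ± 0.21, adjusted p = 0.19), nor were Draxin (-0.38 ± 0.31) and Fabp7 (-0.31 ± 0.51).

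**Figure D4:**
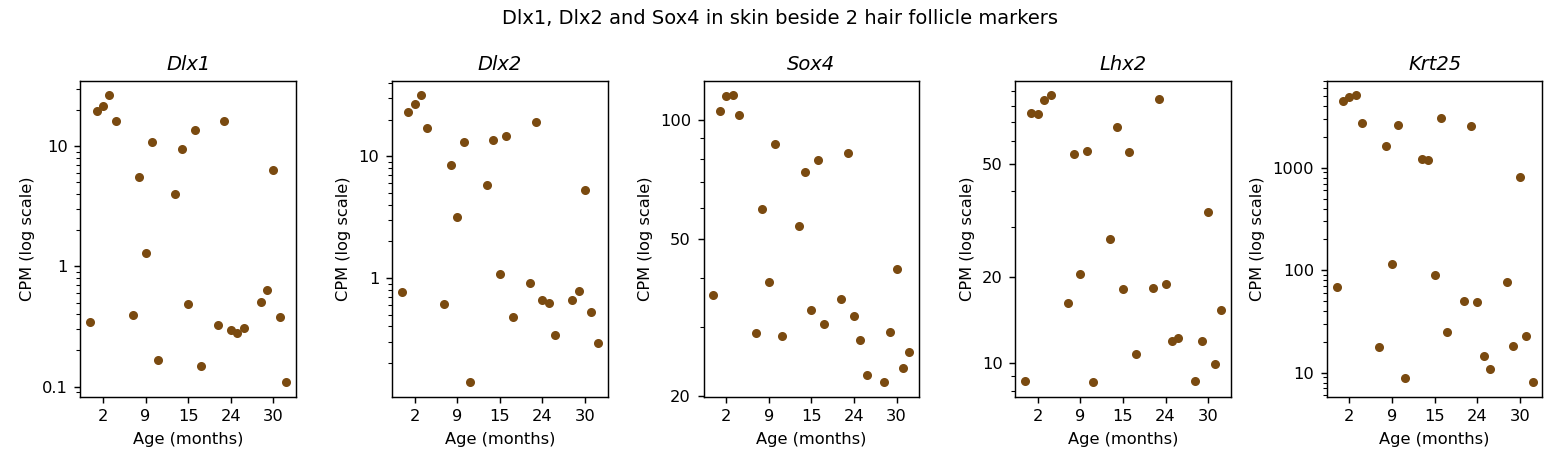
CPM on a log scale of Dlx1, Dlx2, Sox4 and the hair follicle markers Lhx2 and Krt25 in each of the 5 skin libraries an age (age in months, replicates 1 to 5 from left to right). The same libraries are the higher ones in all 5 panels, 4 of 5 at 2 months and 2 of 10 at 24 and 30 months. For Sox4, replicate 3 of 30 months is only a little above the low libraries.

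In liver 1 of the 4 tested genes was called, against 14.3% of all genes. Cd24a had 3.603, 2.87, 1.75 and 5.89 CPM at 2 months, 14.02, 4.92, 30.3, 2.93 and 5.78 CPM at 24 months and 4.38, 18.1, 14.3, 17.5 and 4.18 CPM at 30 months. Of the 10 old libraries 5 lay above the young range and 5 within it. The log2 fold change was 1.71 ± 0.54 (adjusted p = 0.037). The call was lost with limma voom, with 24 or 30 months alone as old, and without replicates 1 or 3 of 24 months, 2 or 4 of 30 months or any replicate of 2 months, with an adjusted p of 0.019 to 0.13 over the 14 fits without 1 library. In the same comparison 5 of 9 markers of B cells, T cells and neutrophils were higher in old liver, with a summed level of 4.85 to 28.7 CPM when young and 14.9 to 88.2 CPM when old. Of 5 cholangiocyte markers 1 was higher (Sox9) and none was at 0, with a summed level of 41.5 to 354 CPM when young and 54.8 to 828.95 CPM when old. The upper ends came from Spp1 in 1 library each, 342 CPM in replicate 1 of 2 months and 797 CPM in replicate 4 of 30 months, and without those libraries the sums were 41.5 to 43.6 CPM and 54.8 to 112 CPM. The part of these cells in the difference was not tested.

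Sox4 in liver was not called (1.24 ± 0.44, adjusted p = 0.058). It had 1.09, 2.34, 2.29 and 2.01 CPM at 2 months, 3.12, 6.67, 5.69, 2.34 and 2.10 CPM at 24 months and 3.32, 3.14, 2.94, 15.1 and 1.89 CPM at 30 months. Of the 10 old libraries 7 lay above the young range, and replicate 4 of 30 months was the highest. Without that library the log2 fold change was 0.79 (adjusted p = 0.076). Over the 14 fits without 1 library it was 0.79 to 1.35 with an adjusted p of 0.031 to 0.15, and Sox4 was called in 4 of them, those without replicates 4 or 5 of 24 months or 3 or 5 of 30 months. It was also called with DESeq2 (adjusted p = 0.019). Fabp7 (0.29 ± 0.30) and Dcx (0.06 ± 0.49) were not called in liver.

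In blood 2 of the 4 tested genes were called, one in each direction, against 21.6% of all genes. Sox4, which lymphocyte precursors use, had 5.14, 6.44, 7.67, 7.33 and 6.21 CPM at 2 months, 2.58, 1.58, 4.19 and 2.66 CPM at 24 months and 1.62, 2.00, 0.456, 0.921 and 1.33 CPM at 30 months. All 9 old libraries lay below all 5 young ones, and the log2 fold change was -1.83 ± 0.27 (adjusted p = 6.0e-05). Fabp7 had 1 to 6 reads in a 2-month library (0.0313 to 0.228 CPM) and 10 to 103 reads in an old one (0.464 to 2.85 CPM). All 9 old libraries lay above the young ones (3.12 ± 0.66, adjusted p = 0.0020). At 9 and 15 months it had at most 17 and 11 reads in a library. Fabp7 thus passed the low-count filter in blood through the old libraries, in which it was high. Its place among the tested genes, its call and its lack of overlap are descriptions and not independent support. The share of all genes tested in blood whose old and young libraries do not overlap was not computed. Of 9 markers of B cells, T cells and neutrophils 5 were lower and 2 higher in old blood, with a summed level of 3072 to 4414 CPM when young and 3556 to 11986 CPM when old, and none was at 0. Their part was not tested.

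Cd24a, known in mice as heat-stable antigen of red cell precursors, B cells and neutrophils, was highly abundant in blood. It had 10129, 5150, 7567, 5521 and 5905 CPM at 2 months, 1492, 3755, 4837 and 4277 CPM at 24 months and 7188, 6082, 3063, 1565 and 4461 CPM at 30 months. The groups overlapped and the log2 fold change of -0.77 ± 0.33 was not called (adjusted p = 0.096). Draxin had 8.46 to 49.2 CPM over the 24 blood libraries against 0.539 to 1.69 CPM over the 39 brain libraries, with no call for age (-0.25 ± 0.33). Its antisense neighbour Mad2l2 had a mean of 5.49 CPM in blood.

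For genes that passed the filter in brain and in another tissue, the old-young difference in brain was tested against that in the other tissue. The joint fits and their shares of all genes used a filter over both tissues, which all 9 genes passed. No gene of the 9 other than those named as unequal was called. Against liver 3 of 4 genes were unequal (background 13.0% of genes): brain minus liver was -2.19 ± 0.41 for Cd24a (adjusted p = 0.00011), -2.12 ± 0.34 for Sox4 (adjusted p = 1.4e-05) and -1.53 ± 0.35 for Fabp7 (adjusted p = 0.0018), with Dcx not called (-0.55 ± 0.38). Against skin 2 of 6 were unequal (30.3%), Dlx1 at 2.66 ± 0.86 (adjusted p = 0.014) and Dlx2 at 2.79 ± 0.82 (adjusted p = 0.0076). This count of 2 of 6 is near that background. For Sox4 the difference between brain and skin was 0.64 ± 0.27 and not called (adjusted p = 0.067). Against blood 2 of 4 were unequal (16.9%), Sox4 at 0.98 ± 0.22 (adjusted p = 0.00064) and Fabp7 at -4.37 ± 0.59 (adjusted p = 9.9e-08). Of the 4 genes that could be tested in brain, skin and blood, Sox4 was the one that was called lower in all of them. Titles of skin and blood libraries carry the same numbers at each age. They may come from the same mice, so the falls in skin and blood are not shown to be independent.

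**Figure D5:**
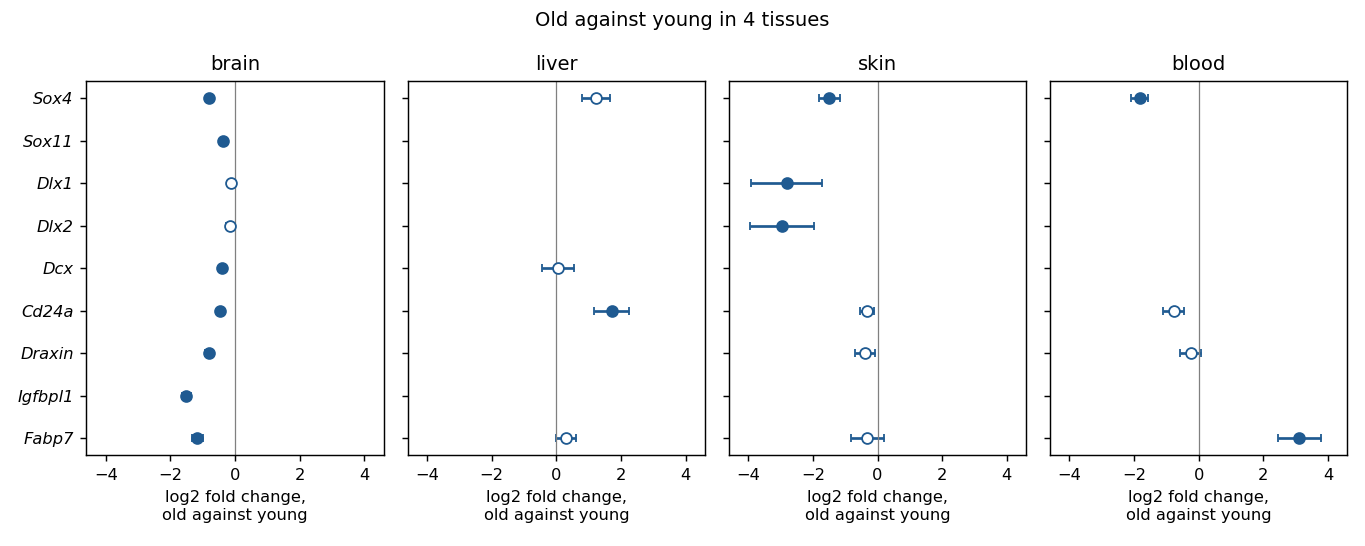
Log2 fold change of old against young with its SE (x axes) for the genes that passed the filter in each tissue. Filled points had an adjusted p under 0.05. In brain 7 of 9 are filled on the lower side, in blood Sox4 and Fabp7 stand on opposite sides.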

How the data were processed

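Whole-number counts of reads per gene were deposited by the authors. Per the study's methods and the submitters' processing notes, single-end reads of 50 bases were aligned with TopHat2 2.0.6 to GRCm38 and assigned to genes with HTSeq 0.5.3p9 and later featureCounts 1.4.3-p1. Use of strand in counting was not stated. The deposited RPKM values were not used, and per-length levels were computed from CPM with exon lengths of GENCODE vM21 (GRCm38).

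Genes that passed filterByExpr were tested within a tissue with edgeR 4.0.16 in R 4.3.3 (TMM scaling, robust quasi-likelihood fit, age as a factor of 5 levels), with Benjamini-Hochberg adjustment over all genes tested and a threshold of 0.05. The SE is the absolute log2 fold change divided by the square root of F. Differences between tissues used a joint fit with 1 coefficient per tissue and age. The alternatives were RLE scaling, other low-count filters, DESeq2 1.42.0, limma 3.58.1 with voom, each old age alone, the replicate block, an added brain library, and leaving out libraries. Another 3 libraries in an added table were otherwise not used. The fits were tested on simulated data.

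The 9 genes and the gene lists were chosen with earlier results of these data known. Named genes were the 9, at most 2 called genes of smallest adjusted p from each lineage list, fixed relatives, and the 8 genes of highest correlation (log2 of CPM with 0.1 added). Named after their values or positions were seen were Gpr17, Gfap, Col3a1, Col1a1, Spp1, Adora2a, Lhx2, Krt25, Krt10, Krt15, Sox9, Cd79a, S100a8, Dlx1as, Mad2l2 and Gm26735.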

Additional observations from a re-analysis of the deposited data

Results flagged for a closer look

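Over 115 groups of 4 to 8 libraries, 14 held a library that stood apart by Dixon's criterion, which chance gives in about 1 in 20 groups. In brain these were Dcx at 61.9 CPM and Dlx1 at 32.95 CPM, both in replicate 3 of 9 months, Sox4 at 18.4 CPM in replicate 1 of 9 months, and Cd24a at 7.51 CPM in replicate 6 of 30 months. In skin, replicate 2 of 24 months stood apart with Sox4 at 82.5 CPM, Dlx1 at 16.3 CPM and Dlx2 at 19.1 CPM. Replicate 3 of 30 months stood apart with Dlx1 at 6.37 CPM and Dlx2 at 5.27 CPM, and replicate 1 of 2 months with Sox4 at 36.1 CPM. In liver Sox4 stood apart at 15.1 CPM in replicate 4 of 30 months. In blood Draxin stood apart at 49.2 CPM in replicate 4 of 2 months and at 9.54 CPM in replicate 3 of 15 months, and Fabp7 at 2.85 CPM in replicate 2 of 24 months.

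The old-young log2 difference was unequal between brain and another tissue in 7 tests. Brain minus liver was -2.12 for Sox4, -2.19 for Cd24a and -1.53 for Fabp7. Brain minus skin was 2.66 for Dlx1 and 2.79 for Dlx2. Brain minus blood was 0.98 for Sox4 and -4.37 for Fabp7.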

How the results depend on the processing

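The count of genes lower in old brain was 6 to 8 over 35 alternatives. From 2 to 9 months it went from 3 to 1 without the 10 near-identical libraries, and was 3 to 4 without single libraries. From 24 to 30 months it went from 1 to 0 with limma voom, with no filter, with the added library and without the near-identical libraries, and was 0 to 1 without single libraries. In old liver it went from 1 to 0 with limma voom, with no filter and with 24 or 30 months alone, to 2 with DESeq2, and was 0 to 2 without single libraries. In old skin it went from 3 to 1 with 24 months alone, to 2 with 30 months alone and with no filter, and was 1 to 3 without single libraries. In old blood a filter that drops genes with a 0 in any library of the tissue, Fabp7 among them, left 1 of 2; the study applied such a filter per organism. The other causes were not tested. No log2 fold change of a called gene reversed. The fit with 2, 24 and 30 months only was chosen after seeing the data. Leaving out single libraries was not run for the differences between tissues.

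Brain titles share a code and number across ages, and 51 of 67 such pairs (the near-identical ones aside) correlated over 0.1, from -0.80 to 0.86. Not every pair did and the labels do not say what the code marks, so the numbers were not taken as pairing. With this replicate block 7 genes were lower in old brain, 3 were called from 2 to 9 months and 2 from 24 to 30 months, Sox4 (-0.28, adjusted p = 0.012) and Dlx1 (-0.25, adjusted p = 0.048). Counts of 17 to 113 reads per library limit the precision of Igfbpl1 and Draxin in brain.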
